A study of Mus musculus with 9 samples.

Results

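The genes described here are 50 genes of the mouse that act in the cell cycle and in mitosis. They were chosen by their symbols, as the rows of the deposited count table that carry these names, and all 50 were found among 48679 listed names. The study occluded retinal veins by laser and compared gene expression in these retinas with that in laser-treated controls and in untreated eyes. RNA was sequenced from 9 samples, and each sample was a pool of 6 retinas of C57BL/6J mice 12 weeks old. The RVO group (n = 3) consisted of eyes in which all large veins had been occluded by laser, with retinas taken at d2, which is day 2 after the laser. The control group (n = 3) consisted of the fellow eyes of such mice, lasered in the same number and pattern but between the large vessels, and also taken at d2. Both groups share the anesthesia with ketamine and xylazine and the i. p. injection of eosin Y, a dye that enhanced the effect of the laser. The untreated group (n = 3) came from other mice that received no laser treatment. Control eyes are thus laser-injured eyes without vein occlusion, and they are not healthy eyes. The number n counts pools and not mice, and p-values set differences against the spread between pools. The labels do not tell which mice entered which pool. Pools of RVO and control eyes could thus not be paired, and the tests treated these fellow eyes as independent.

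The genes fall into 9 roles. D cyclins with the kinases Cdk4 and Cdk6 start the cycle in G1 by phosphorylating the retinoblastoma protein, which releases E2F transcription factors. Cyclins E and A with Cdk2 then start and carry DNA replication, for which MCM helicases are loaded onto origins beforehand. Cyclin B with Cdk1 drives entry into mitosis, in which kinetochores attach chromosomes to the spindle and checkpoint proteins delay their separation until all are attached. CDK inhibitors hold cells in G1. Neurons of the adult retina have left the cell cycle, whereas endothelial cells, microglia and some immigrating leukocytes can divide. Mueller cells, the main glia of the retina, can switch on cell cycle genes after injury. This is general knowledge and not a result of these data.

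Levels are in CPM, the standard unit that relates a gene's count to the total count of its sample, scaled by TMM factors that correct for differences in RNA composition. Untreated samples had total counts of 12377572 to 15245869, control samples of 18897218 to 23419497 and RVO samples of 21022997 to 28993921, so rare transcripts were measured with less precision in untreated eyes. All genes entered the quasi-likelihood test of edgeR, with each pair of groups fitted separately, and a gene counted as higher or lower where its p, adjusted after Benjamini and Hochberg, was under 0.01. The samples carried the RNA of retina, and 10 rod markers summed to 93993 to 96079 CPM in untreated eyes. In RVO eyes they summed to 50585 to 54824 CPM and in control eyes to 61089 to 74276 CPM, with 9 and 7 of 10 markers lower than in untreated eyes, and 2 of 10 lower in RVO than in control eyes. In such bulk samples, fewer cells of a type and less RNA per cell cannot be told apart.

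Of the 50 genes, 49 were tested between RVO and untreated eyes, with 23 higher in RVO eyes and 4 lower (edgeR, adjusted p under 0.01). Of all genes tested, 27.4% were higher and 24.6% lower. The median log2 fold change of the 49 genes was 0.99, beside 0.01 for all genes. Between control and untreated eyes, 46 were tested, with 18 higher and 4 lower in control eyes. Of all genes, 27.2% were higher and 25.2% lower in this comparison, and the median log2 fold changes were 0.45 for the cell cycle genes and 0.01 for all genes. At an adjusted p under 0.05, 31 were higher and 4 lower in RVO (34.4% and 32.5% of all genes) and 26 and 4 in control eyes (33% and 31.4% of all genes). Both comparisons share the untreated samples. Scaling by total count only, which shifted the median of all genes by 0.21 in the RVO and 0.17 in the control comparison, gave 27 higher and 4 lower genes in RVO (36.4% and 16.7% of all genes) and 25 and 4 in control eyes (36.7% and 15.5% of all genes). The samples of both groups did not overlap for 31 higher and 4 lower genes between RVO and untreated eyes, where 35.9% and 37.6% of all genes were separated in these directions, and for 27 and 4 between control and untreated eyes, where it was 34.5% and 35.5%. More cell cycle genes were thus called higher than lower, and the share of higher genes lay above the background in both comparisons. Part of this was fixed by the filter, since genes near 0 in untreated eyes, such as Mki67 and Top2a, enter through the laser-treated samples. Such genes can hardly be called lower. With at least 10 counts in every sample, 14 genes were higher in RVO and 12 in control eyes, and 4 were lower in each. There, 28.2% and 28.6% of all genes were higher, and the median log2 fold changes of the cell cycle genes were 0.54 and 0.34. The 4 genes lower than in untreated eyes were Cdkn1b, Ccne2, Ccna2 and Spc25 in both comparisons. The gene not tested in any comparison was Ccnb1, and Bub1, Ndc80 and Spc24 were not tested between control and untreated eyes, because their counts were too low.

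Between RVO and control eyes, 49 genes were tested, with 5 higher in RVO eyes and 0 lower at an adjusted p under 0.01 (edgeR). Of all genes, 2.7% were higher and 0.634% lower. At an unadjusted p under 0.05, edgeR found 15 higher and 4 lower, where 7940 of all 16874 genes passed in either direction. DESeq2's Wald test, with adjusted p under 0.01, found 11 higher and 1 lower, where it called 11% and 12.9% of all genes. At an adjusted p under 0.05, edgeR gave 12 higher and 3 lower, where 17.5% and 17.1% of all genes passed. The 2 groups did not overlap for 17 higher and 4 lower genes, beside 26.7% and 25.8% of all genes. Their median log2 fold change was 0.29, beside 0.02 for all genes. The 5 genes were Ccnd1, Cdkn1a, Cdkn2c, Cdk2 and E2f1, which act in G1 and at the passage to S phase. This count rested on single libraries, and the count over all genes moved with it. Without RVO replicate 2 it was 14, where 17.1% of all genes were higher and 19.3% lower. The other 5 libraries were RVO replicates 1 and 3 and control replicates 1, 2 and 3. Without any 1 of these it was 0 in edgeR, with 0 to 29 of all genes called higher. In these 5 fits, 12 to 16 cell cycle genes were higher and 2 to 4 lower at an unadjusted p under 0.05. There, 6100 to 6916 of 17149 to 17270 genes passed in either direction.

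**Figure D1:**
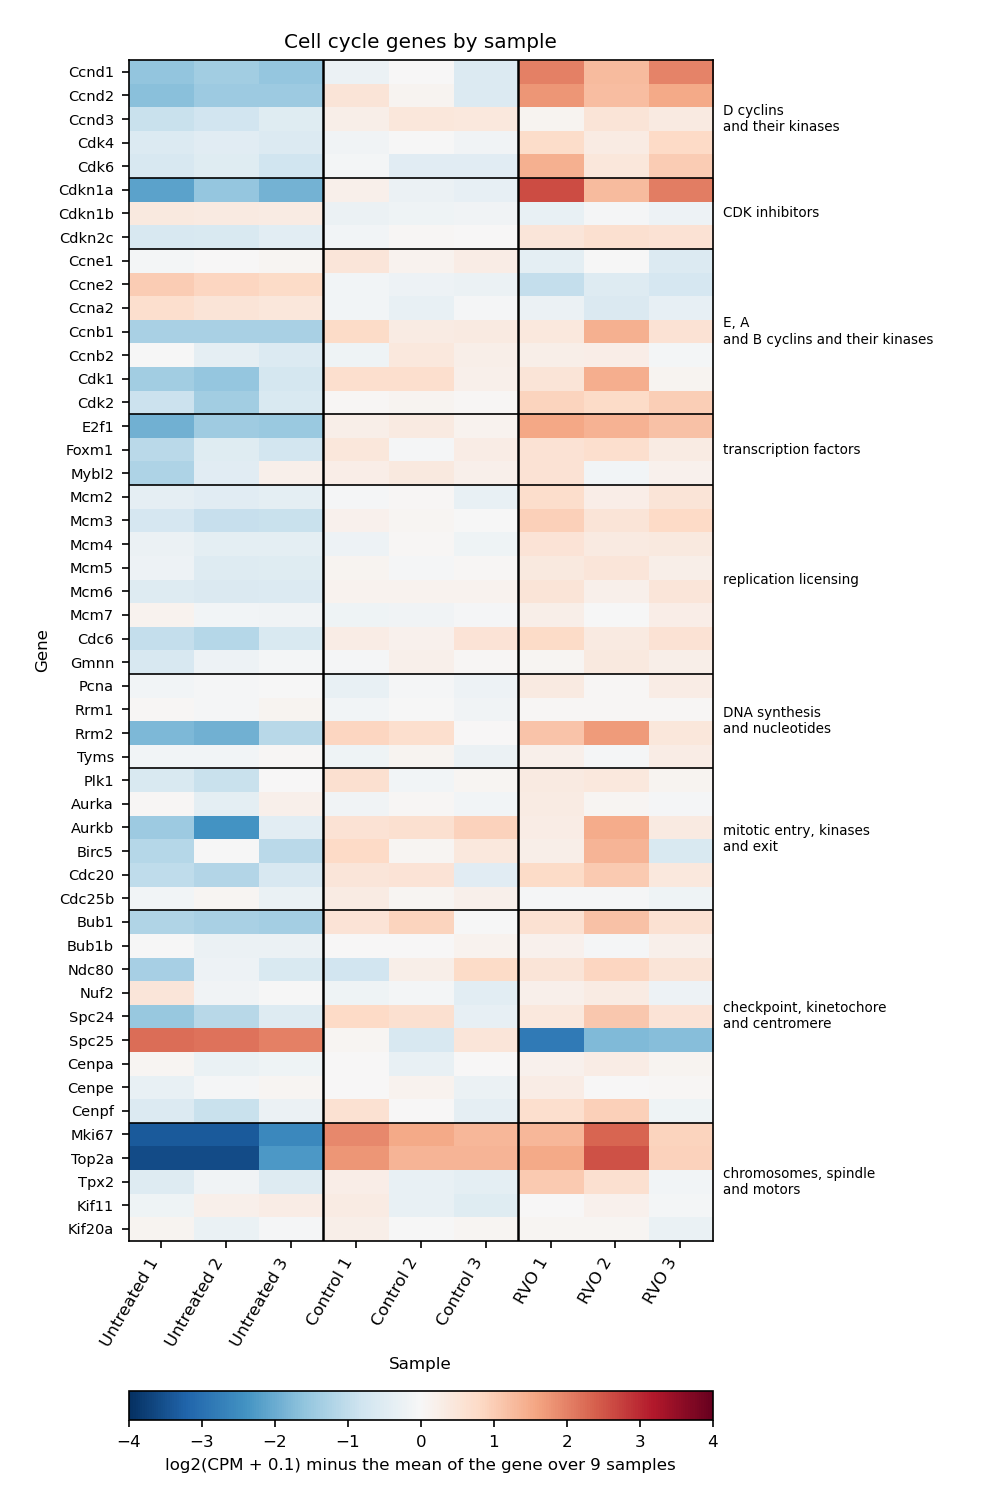
Each row is a gene and each column a sample, and the color is log2(CPM + 0.1) minus the mean of that gene over all 9 samples, with horizontal lines between roles. Ccnd1, Ccnd2, Cdkn1a and E2f1 are lowest in untreated, intermediate in control and highest in RVO samples, Mki67 and Top2a are low in untreated samples only, and Spc25 is high in untreated samples.

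All 5 genes of the D cyclins and their kinases rose in RVO eyes against untreated eyes, and 4 of them rose in control eyes. The shares of all genes that rose were 27.4% and 27.2%. Ccnd1 (chromosome 7, 144929931 to 144939925 of GRCm38), which encodes cyclin D1, had 22.4, 25.6 and 23.1 CPM in untreated replicates 1, 2 and 3, 57.3, 68.0 and 46.2 CPM in control eyes and 274, 161 and 265 CPM in RVO eyes. The 3 groups did not overlap, and RVO replicate 2 was the lowest RVO sample. Against untreated eyes, Ccnd1 was 10.1-fold higher in RVO (log2 fold change 3.33 with a standard error of 0.21, edgeR, adjusted p = 1.14e-05) and 2.44-fold higher in control eyes (log2 fold change 1.29 with a standard error of 0.12, edgeR, adjusted p = 2.15e-06). RVO eyes exceeded control eyes 4.09-fold (log2 fold change 2.03 with a standard error of 0.23, edgeR, adjusted p = 0.00672). Ccnd1 is among the genes that the study selected on these samples, so its direction is not independent evidence. Of its exon sequence, 21.6% of 50-base words also occur in the overlapping gene LTO1 on the opposite strand, so its counts are uncertain if the counting ignored the strand.

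Ccnd2 (chromosome 6, 127125162 to 127152193), which encodes cyclin D2, followed the same order, with 4.54, 5.39 and 5.36 CPM in untreated, 21.0, 16.0 and 10.2 CPM in control and 51.0, 34.9 and 42.2 CPM in RVO samples. It rose 8.53-fold in RVO (log2 fold change 3.09 with a standard error of 0.17, edgeR, adjusted p = 6.82e-06) and 3.11-fold in control eyes (log2 fold change 1.63 with a standard error of 0.23, edgeR, adjusted p = 4.79e-05). The difference between RVO and control eyes missed the threshold, although the groups did not overlap (log2 fold change 1.44 with a standard error of 0.26, edgeR, adjusted p = 0.0116). Ccnd3 (chromosome 17, 47505051 to 47599691), which encodes cyclin D3, behaved otherwise. It had 21.3, 23.2 and 28.4 CPM in untreated, 46.7, 53.7 and 52.97 CPM in control and 42.9, 55.9 and 51.0 CPM in RVO eyes. It rose 2.09-fold in RVO (log2 fold change 1.07 with a standard error of 0.14, edgeR, adjusted p = 0.000261) and 2.12-fold in control eyes (log2 fold change 1.09 with a standard error of 0.10, edgeR, adjusted p = 1.80e-06), and RVO and control samples overlapped (log2 fold change -0.03 with a standard error of 0.11, edgeR, adjusted p = 0.831). That last value turned positive in some alternative analyses. The 3 D cyclins were thus all higher after laser treatment, and their values between RVO and control eyes ranged from -0.03 to 2.03 on the log2 scale.

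The kinases that bind D cyclins had smaller fold changes than Ccnd1 and Ccnd2. Cdk4 (chromosome 10, 127063534 to 127067920) had 36.7, 38.9 and 36.4 CPM in untreated, 48.6, 52.7 and 48.2 CPM in control and 88.9, 66.6 and 91.9 CPM in RVO samples, without overlap. This was a 2.26-fold rise in RVO (log2 fold change 1.18 with a standard error of 0.13, edgeR, adjusted p = 0.000127) and a 1.35-fold rise in control eyes (log2 fold change 0.43 with a standard error of 0.07, edgeR, adjusted p = 0.000119). The latter was lost when trends with GC content and length were removed (log2 fold change 0.13, adjusted p = 0.147 with edgeR). Tspan31, which overlaps Cdk4 on the opposite strand, and other genes share 17.01% of its 50-base words. Cdk6 (chromosome 5, 3341485 to 3531008) had 6.36, 7.11 and 5.79 CPM in untreated, 9.59, 7.38 and 7.41 CPM in control and 27.0, 13.8 and 20.6 CPM in RVO samples. It rose 3.28-fold in RVO (log2 fold change 1.71 with a standard error of 0.25, edgeR, adjusted p = 0.000492), and the value in control eyes did not pass the threshold (log2 fold change 0.36 with a standard error of 0.14, edgeR, adjusted p = 0.0437). Against control eyes, Cdk4 (log2 fold change 0.73 with a standard error of 0.13, edgeR, adjusted p = 0.0110) and Cdk6 (log2 fold change 1.34 with a standard error of 0.25, edgeR, adjusted p = 0.0124) had higher values in each RVO sample than in any control sample, but neither passed the threshold.

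The 3 CDK inhibitors took different directions. Cdkn1a (chromosome 17, 29090976 to 29100727) encodes p21, a target of p53 that blocks the cyclin-dependent kinases of G1 and S phase. It had 3.72, 5.63 and 4.43 CPM in untreated, 19.1, 14.1 and 13.3 CPM in control and 103, 39.7 and 68.3 CPM in RVO samples, so the RVO samples covered a wide range but lay above all control samples. It was 15.6-fold higher in RVO (log2 fold change 3.96 with a standard error of 0.37, edgeR, adjusted p = 6.06e-05) and 3.40-fold higher in control eyes (log2 fold change 1.77 with a standard error of 0.17, edgeR, adjusted p = 2.39e-06). For Cdkn1a, RVO eyes exceeded control eyes 4.54-fold (log2 fold change 2.18 with a standard error of 0.34, edgeR, adjusted p = 0.00977), the largest value of the 49 genes tested in this comparison. Cdkn1a was also selected by the study on these samples. Cdkn2c (chromosome 4, 109660876 to 109667189), which encodes p18, an inhibitor of Cdk4 and Cdk6, had 17.3, 17.7 and 20.4 CPM in untreated, 25.1, 28.1 and 27.2 CPM in control and 38.1, 42.8 and 40.7 CPM in RVO samples. These groups did not overlap, and Cdkn2c rose 2.24-fold in RVO (log2 fold change 1.16 with a standard error of 0.10, edgeR, adjusted p = 3.80e-05), 1.46-fold in control eyes (log2 fold change 0.55 with a standard error of 0.09, edgeR, adjusted p = 0.000186) and 1.51-fold between RVO and control eyes (log2 fold change 0.60 with a standard error of 0.08, edgeR, adjusted p = 0.00817).

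Cdkn1b (chromosome 6, 134920401 to 134925513), which encodes p27, an inhibitor associated with the resting state of differentiated cells, went down instead. It had 162, 157 and 154 CPM in untreated, 104, 109.7 and 112 CPM in control and 99.7, 119 and 107 CPM in RVO samples. The untreated samples lay above all laser-treated samples, whereas control and RVO samples overlapped. Its log2 fold change was -0.51 in RVO (edgeR, adjusted p = 0.000682, standard error 0.08) and -0.52 in control retinas (adjusted p = 3.10e-06, standard error 0.05). When trends with GC content and length were removed, these values shrank to -0.12 (edgeR, adjusted p = 0.158) and -0.15 (adjusted p = 0.0179), and Cdkn1b did not pass the threshold. The log2 fold change of RVO against control eyes was 0.0012 (standard error 0.08, adjusted p = 0.992), and its sign differed between analyses.

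**Figure D2:**
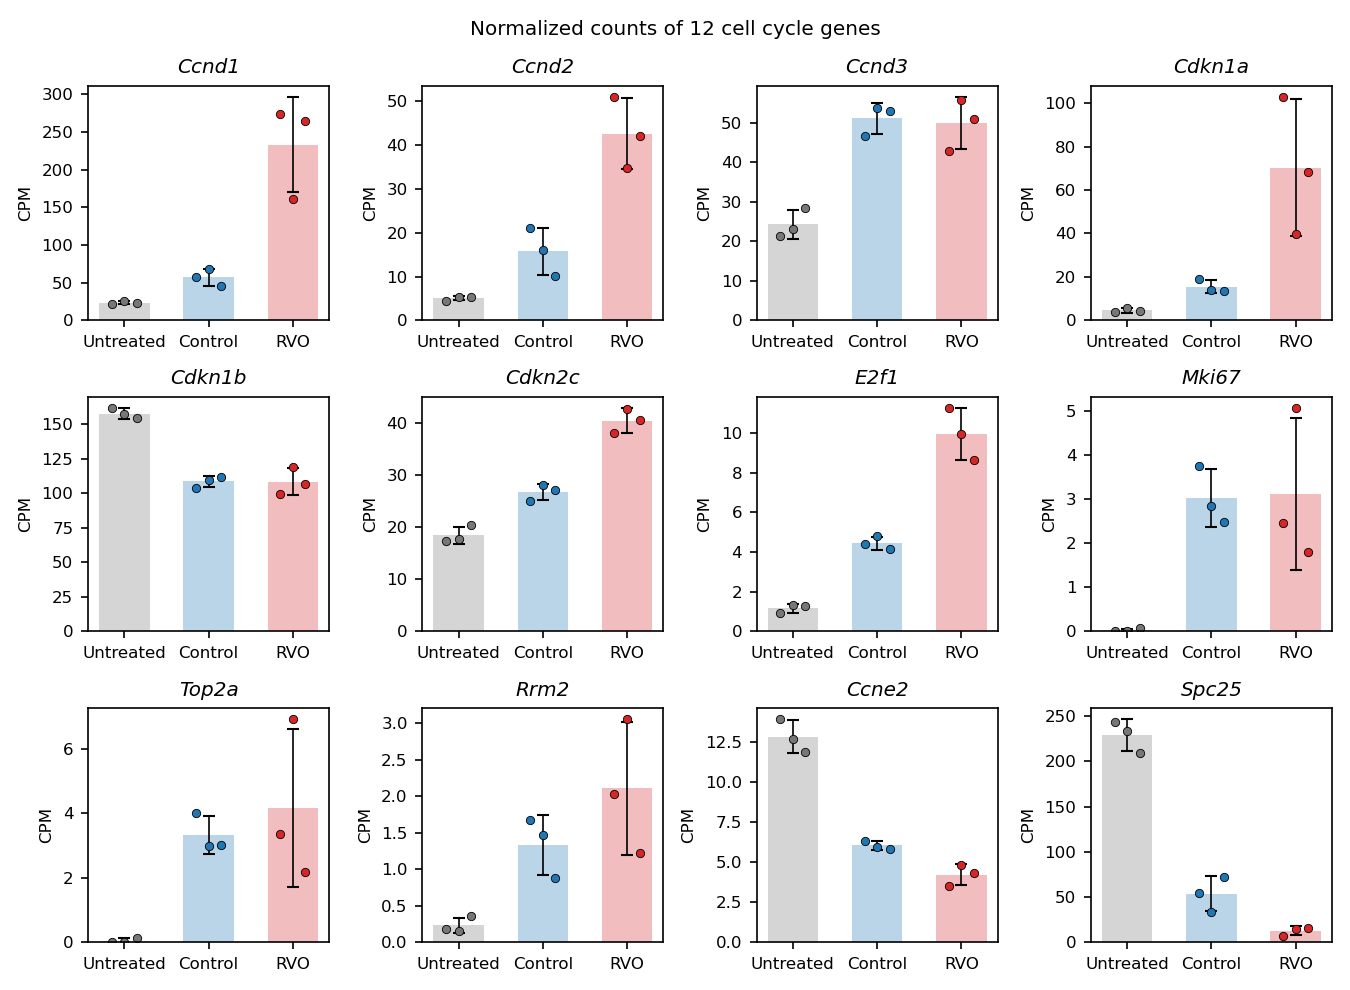
CPM of 12 cell cycle genes, with a bar for the mean of each group, an error bar for the SD (n = 3 pools) and a point for each sample. Ccnd1, Ccnd2, Cdkn1a, Cdkn2c and E2f1 form 3 separate levels, Ccnd3 and Cdkn1b form 2, and Spc25 and Ccne2 are highest in untreated eyes.

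The E, A and B cyclins and their kinases went in different directions, since both kinases rose and the cyclins Ccne2 and Ccna2 fell. In each comparison with untreated eyes, 2 of 6 tested were thus higher and 2 lower, near the shares of all genes given above. Cdk2 (chromosome 10, 128697939 to 128705031), the kinase of cyclins E and A, had 2.45, 1.64 and 2.93 CPM in untreated, 4.70, 4.90 and 4.69 CPM in control and 8.54, 7.69 and 8.97 CPM in RVO samples. It rose 3.65-fold in RVO (log2 fold change 1.87 with a standard error of 0.22, edgeR, adjusted p = 0.000175) and 2.05-fold in control eyes (log2 fold change 1.04 with a standard error of 0.20, edgeR, adjusted p = 0.000615), and RVO eyes exceeded control eyes 1.77-fold (log2 fold change 0.82 with a standard error of 0.13, edgeR, adjusted p = 0.00996). Cdk1 (chromosome 10, 69335146 to 69352938), the kinase of mitosis, had 0.363, 0.313 and 0.643 CPM in untreated, 1.81, 1.82 and 1.30 CPM in control and 1.62, 3.18 and 1.19 CPM in RVO samples. RVO replicate 2 was the highest sample, and the other RVO samples overlapped with control samples. Cdk1 rose 4.49-fold in RVO (log2 fold change 2.17 with a standard error of 0.50, edgeR, adjusted p = 0.00528) and 3.65-fold in control eyes (log2 fold change 1.87 with a standard error of 0.34, edgeR, adjusted p = 0.000403). The call in RVO eyes was lost without any of the untreated replicates 1, 2 or 3, with adjusted p-values of 0.0259, 0.0270 and 0.0132 for Cdk1 (edgeR).

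Ccne2 (chromosome 4, 11191351 to 11204779), which encodes cyclin E2, had 13.9, 12.7 and 11.9 CPM in untreated, 6.33, 5.96 and 5.82 CPM in control and 3.50, 4.80 and 4.31 CPM in RVO samples, 3 separate levels in falling order. It was 2.98-fold lower in RVO (log2 fold change -1.58 with a standard error of 0.16, edgeR, adjusted p = 9.82e-05) and 2.09-fold lower in control eyes (log2 fold change -1.06 with a standard error of 0.11, edgeR, adjusted p = 4.72e-06). Ccna2 (chromosome 3, 36564865 to 36572150), which encodes cyclin A2, had 44.8, 40.5 and 38.6 CPM in untreated, 26.0, 22.9 and 27.7 CPM in control and 24.2, 19.0 and 22.4 CPM in RVO samples. It was 1.84-fold lower in RVO (log2 fold change -0.88 with a standard error of 0.12, edgeR, adjusted p = 0.000298) and 1.59-fold lower in control eyes (log2 fold change -0.67 with a standard error of 0.09, edgeR, adjusted p = 2.38e-05). Overlapping genes on the opposite strand share 50-base words with both, Ints8 with Ccne2 (14.4%) and Exosc9 with Ccna2 (11.4%). Ccne1, which encodes cyclin E1, had 3.91, 4.14 and 4.36 CPM in untreated, 5.74, 4.50 and 5.11 CPM in control and 3.09, 4.08 and 2.77 CPM in RVO samples. It passed the threshold in no comparison, with log2 fold changes of -0.29 in RVO and 0.32 in control eyes against untreated eyes and -0.63 in RVO against control eyes (edgeR, adjusted p = 0.229, 0.0844 and 0.0406).

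The B cyclins, which activate Cdk1, were rare. Ccnb1, which encodes cyclin B1, had 0 counts in the untreated samples, 7, 4 and 5 counts in control samples and 7, 13 and 6 counts in RVO samples. Set against a floor of 3 counts over the 3 untreated samples, the pooled level was 4.22-fold higher in RVO and 3.06-fold higher in control eyes. These values leave out the counting error of the laser-treated samples and are not lower bounds. With the counting error of the 26 and 16 counts included, the exact 95% intervals of the ratios to the 0 untreated counts began at 3.19 and 2.22. Pseudogenes share 23.4% of the 50-base words of Ccnb1. Ccnb2, which encodes cyclin B2, had 1.56 ± 0.317 CPM in untreated (SD, n = 3), 2.14 ± 0.296 CPM in RVO and 2.19 ± 0.481 CPM in control retinas and passed the threshold in no comparison (edgeR, adjusted p = 0.0943 in RVO and 0.0974 in control against untreated eyes).

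Of the 3 transcription factors, E2f1 and Foxm1 rose in both laser-treated groups, beside 27.4% of all genes in RVO and 27.2% in control eyes. E2f1 (chromosome 2, 154559407 to 154569892), which activates genes of DNA replication, had 0.908, 1.33 and 1.29 CPM in untreated, 4.39, 4.80 and 4.14 CPM in control and 11.2, 9.94 and 8.62 CPM in RVO samples. The 3 groups were far apart relative to their spread. E2f1 rose 8.54-fold in RVO (log2 fold change 3.09 with a standard error of 0.21, edgeR, adjusted p = 1.77e-05), 3.77-fold in control eyes (log2 fold change 1.91 with a standard error of 0.21, edgeR, adjusted p = 5.76e-06) and 2.24-fold between RVO and control eyes (log2 fold change 1.17 with a standard error of 0.15, edgeR, adjusted p = 0.00803). Foxm1 (chromosome 6, 128362967 to 128376146), which activates genes of mitosis, had 0.545, 0.860 and 0.714 CPM in untreated, 1.76, 1.21 and 1.55 CPM in control and 1.91, 2.04 and 1.58 CPM in RVO samples. It rose 2.64-fold in RVO (log2 fold change 1.40 with a standard error of 0.27, edgeR, adjusted p = 0.00202) and 2.14-fold in control eyes (log2 fold change 1.10 with a standard error of 0.30, edgeR, adjusted p = 0.00561). These calls were marginal, since the first was lost without untreated replicate 1 or 3 (edgeR, adjusted p = 0.0115 and 0.0118 for Foxm1). The second was lost without control replicate 1 or 3 or untreated replicate 1, 2 or 3 (adjusted p = 0.0237, 0.0150, 0.0286, 0.0128 and 0.0230). Mybl2, which encodes B-Myb, a partner of these factors, had 0.636, 1.17 and 1.93 CPM in untreated, 1.99, 2.17 and 1.92 CPM in control and 2.48, 1.53 and 1.89 CPM in RVO samples. Untreated replicate 3 lay at the level of the laser-treated samples, and Mybl2 passed the threshold in no comparison (log2 fold change 0.67 in RVO and 0.67 in control eyes, edgeR, adjusted p = 0.145 and 0.0702).

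Replication licensing is the loading of the MCM helicase onto origins. Of 8 genes of this role, 6 were higher in RVO and 4 in control than in untreated eyes, beside 27.4% and 27.2% of all genes. The log2 fold changes of the 8 were 0.22 to 1.65 in RVO and -0.09 to 1.37 in control eyes. Mcm3 (chromosome 1, 20802968 to 20820312), a subunit of the helicase, had 4.09, 3.44 and 3.50 CPM in untreated, 7.37, 6.92 and 6.44 CPM in control and 12.8, 9.43 and 11.6 CPM in RVO samples. It rose 3.15-fold in RVO (log2 fold change 1.65 with a standard error of 0.18, edgeR, adjusted p = 0.000115) and 1.91-fold in control eyes (log2 fold change 0.93 with a standard error of 0.15, edgeR, adjusted p = 0.000104). Cdc6 (chromosome 11, 98907801 to 98923940), which loads the helicase, had 0.545, 0.469 and 0.714 CPM in untreated, 1.45, 1.31 and 1.72 CPM in control and 2.01, 1.49 and 1.76 CPM in RVO samples. It rose 3.08-fold in RVO (log2 fold change 1.62 with a standard error of 0.28, edgeR, adjusted p = 0.00131) and 2.59-fold in control eyes (log2 fold change 1.37 with a standard error of 0.30, edgeR, adjusted p = 0.00139), and the latter call was lost without untreated replicate 2 (edgeR, adjusted p = 0.0113 for Cdc6).

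The 6 subunits of the helicase, Mcm2 to Mcm7, did not move by the same amount. In RVO eyes, Mcm2 (0.93), Mcm4 (0.82), Mcm5 (0.82) and Mcm6 (0.99) rose by log2 fold changes below that of Mcm3. Mcm7 had 0.22 in RVO and -0.09 in control eyes and passed the threshold in neither (edgeR, adjusted p = 0.159 and 0.451). Mcm7 shares 23.3% of its 50-base words with other genes and hosts microRNAs. Gmnn, which encodes geminin, the inhibitor of licensing, had 3.31 ± 0.682 CPM in untreated (SD, n = 3) and 4.80 ± 0.541 CPM in RVO eyes and did not pass (edgeR, adjusted p = 0.0391). Comparing RVO with control eyes, all 8 log2 fold changes were positive, from 0.17 to 0.71, with adjusted p-values from 0.0119 to 0.411 (edgeR). RVO replicate 2 was the lowest RVO sample for 6 of the 8 genes.

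Of 4 genes of DNA synthesis and nucleotide supply, 1 rose in RVO and in control eyes, near the 27.4% and 27.2% of all genes. Rrm2 (chromosome 12, 24708241 to 24714146), the subunit of ribonucleotide reductase that is made in S phase, had 0.182, 0.156 and 0.357 CPM in untreated, 1.67, 1.47 and 0.879 CPM in control and 2.04, 3.06 and 1.23 CPM in RVO samples. These values rest on 2, 2 and 5 counts in untreated samples. Rrm2 rose 8.87-fold in RVO (log2 fold change 3.15 with a standard error of 0.51, edgeR, adjusted p = 0.000891) and 5.53-fold in control eyes (log2 fold change 2.47 with a standard error of 0.45, edgeR, adjusted p = 0.000357). Its partner subunit Rrm1 had 48.0 ± 2.38 CPM in untreated (SD, n = 3), 48.4 ± 0.261 CPM in RVO and 44.0 ± 1.79 CPM in control retinas, and did not pass the threshold (edgeR, adjusted p = 0.626 and 0.183). Pcna (chromosome 2, 132249162 to 132253314), the clamp that holds DNA polymerase on DNA, had 37.6, 38.5 and 39.8 CPM in untreated, 32.6, 39.1 and 34.9 CPM in control and 52.1, 41.3 and 49.6 CPM in RVO samples. Its log2 fold change was 0.33 in RVO and -0.11 in control eyes (edgeR, adjusted p = 0.0191 and 0.275). Without RVO replicate 2, Pcna was called higher in RVO eyes (log2 fold change 0.44, adjusted p = 0.000135 with edgeR). When trends with GC content and length were removed, Pcna was called higher in RVO (0.79, adjusted p = 0.000685) and in control eyes (0.33, adjusted p = 0.00472). The pseudogene Pcna-ps2 shares 19.1% of its 50-base words. Tyms, which makes thymidylate, had log2 fold changes of 0.24 and -0.03 and passed in neither comparison (edgeR, adjusted p = 0.219 and 0.864).

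Genes of mitotic entry and exit were expressed at low levels. Of 6 such genes, 1 passed the threshold in RVO and 1 in control against untreated eyes. Both were higher, and these shares lay below the 27.4% and 27.2% of all genes called higher. Cdc20 (chromosome 4, 118432901 to 118437352), which activates the ubiquitin ligase of mitotic exit, had 0.363, 0.313 and 0.500 CPM in untreated, 1.22, 1.26 and 0.586 CPM in control and 1.497, 1.83 and 1.14 CPM in RVO samples. It rose 3.80-fold in RVO (log2 fold change 1.93 with a standard error of 0.34, edgeR, adjusted p = 0.00128), and the value in control eyes did not pass (log2 fold change 1.35 with a standard error of 0.43, edgeR, adjusted p = 0.0138). That value passed without control replicate 3 (edgeR, log2 fold change 1.65, adjusted p = 0.00219 for Cdc20). Aurkb (chromosome 11, 69045647 to 69051664), the kinase of the chromosomal passenger complex, had 0.0908, 0 and 0.286 CPM in untreated, 0.678, 0.707 and 0.879 CPM in control and 0.542, 1.36 and 0.572 CPM in RVO samples. It rose 5.57-fold in control eyes (log2 fold change 2.48 with a standard error of 0.59, edgeR, adjusted p = 0.00248), a call lost without untreated replicate 1 or 2 (edgeR, adjusted p = 0.0134 and 0.0126 for Aurkb). In RVO eyes its log2 fold change did not pass (log2 fold change 2.60 with a standard error of 0.78, edgeR, adjusted p = 0.0174), and 1 of the 3 samples, RVO replicate 2, was far above the others.

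The other 4 genes of this role are Birc5, which encodes survivin of the same complex, the kinases Plk1 and Aurka and the phosphatase Cdc25b, which activates Cdk1. Their log2 fold changes against untreated eyes were 1.39, 0.81, 0.20 and 0.04 in RVO and 1.29, 0.72, -0.02 and 0.33 in control eyes, in this order. Their adjusted p-values (edgeR) lay above the threshold and were 0.0948, 0.0296, 0.434 and 0.822 in RVO and 0.0145, 0.0453, 0.926 and 0.0320 in control eyes. Birc5 had 0.860, 1.996 and 0.440 CPM in the RVO replicates, again with the highest value in replicate 2.

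Among 9 genes of the checkpoint, the kinetochore and the centromere, Bub1 and Spc24 rose and Spc25 fell in RVO against untreated eyes. Neither share exceeded that of all genes, 27.4% higher and 24.6% lower. Spc25 (chromosome 2, 69193895 to 69206194) had the largest fall of the 49 genes. It had 244, 234 and 209 CPM in untreated, 55.1, 33.8 and 72.3 CPM in control and 7.20, 15.2 and 16.0 CPM in RVO samples, and the 3 groups did not overlap. It was 17.7-fold lower in RVO (log2 fold change -4.14 with a standard error of 0.27, edgeR, adjusted p = 1.47e-05) and 4.19-fold lower in control eyes (log2 fold change -2.07 with a standard error of 0.18, edgeR, adjusted p = 1.11e-06). RVO eyes had 4.23-fold less than control eyes, which missed the threshold (log2 fold change -2.08 with a standard error of 0.36, edgeR, adjusted p = 0.0109). The value passed without RVO replicate 2 (edgeR, log2 fold change -2.26, adjusted p = 0.000878 for Spc25). No other gene overlaps the exons of Spc25, and 0 of its 50-base words occur in other genes. In the same samples 9 of 10 rod markers fell, with log2 fold changes of -1.21 to -0.30 for all 10 in RVO against untreated eyes, and their part in the fall of Spc25 was not tested.

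Spc25 is a subunit of the Ndc80 complex, which binds kinetochores to microtubules and also holds Ndc80, Nuf2 and Spc24. Levels of genes can be compared per exon length. In untreated eyes, Spc25 had 71.8 CPM per kb, while Nuf2 had 0.433, Spc24 0.0690 and Ndc80 0.0317 CPM per kb. In RVO eyes the levels were 4.01 CPM per kb for Spc25, 0.431 for Nuf2, 0.311 for Spc24 and 0.0980 for Ndc80. The 4 subunits were thus at unequal RNA levels, and the gap was smaller in RVO than in untreated eyes. Nuf2 had 3.54, 2.27 and 2.43 CPM in untreated, 2.17, 2.32 and 1.84 CPM in control and 2.90, 3.14 and 2.15 CPM in RVO samples, with overlapping groups, and its value in RVO against untreated eyes was the smallest of the 49 genes by size (log2 fold change 0.04 with a standard error of 0.25, edgeR, adjusted p = 0.901). Spc24 rose 4.28-fold in RVO (log2 fold change 2.10 with a standard error of 0.47, edgeR, adjusted p = 0.00445), from 1, 2 and 4 counts in untreated samples. Ndc80 had 0.206 ± 0.111 CPM in untreated and 0.636 ± 0.111 CPM in RVO eyes (SD, n = 3) and did not pass (log2 fold change 1.59 with a standard error of 0.43, edgeR, adjusted p = 0.0114).

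Bub1 and Bub1b are kinases of the spindle checkpoint, and their levels also differed. Bub1 (chromosome 2, 127801122 to 127831865) had 1, 1 and 1 counts in untreated samples, 12, 14 and 8 in control and 18, 21 and 13 in RVO samples. The ratio of its pooled counts to those of untreated eyes, relative to total counts, was 8.44 in RVO (exact 95% interval 2.73 to 42.2) and 6.51 in control eyes (2.05 to 33.1), where the intervals cover counting error only. The edgeR test for Bub1 passed in RVO eyes (adjusted p = 0.000991). Bub1b had 43.7 ± 4.21 CPM in untreated (SD, n = 3), 52.7 ± 4.78 CPM in RVO and 51.0 ± 2.17 CPM in control retinas, and it passed the threshold in neither comparison (edgeR, adjusted p = 0.0318 and 0.0126). Per exon length, untreated eyes held 10.2 CPM per kb of Bub1b and 0.0184 CPM per kb of Bub1. Cenpa, the histone of centromeres, and the kinetochore proteins Cenpe and Cenpf had log2 fold changes of 0.36, 0.24 and 1.21 in RVO eyes and did not pass (edgeR, adjusted p = 0.128, 0.212 and 0.0237).

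Mki67 and Top2a had the largest fitted fold changes of the 49 genes, against 1 and 2 counts over the untreated group, and the intervals of their ratios overlapped. Mki67 (chromosome 7, 135689784 to 135716361) encodes Ki-67, the protein that coats mitotic chromosomes and marks cycling cells. It had 0, 0 and 1 counts in untreated samples, 83, 56 and 59 counts in control samples and 77, 119 and 41 counts in RVO samples. In CPM, this was 3.75, 2.83 and 2.47 in control and 2.45, 5.05 and 1.80 in RVO replicates, so all 6 laser-treated samples lay far above the untreated ones and overlapped with each other. The ratio of pooled counts to untreated eyes was 115 in RVO (exact 95% interval 20.5 to 4575) and 114 in control eyes (20.2 to 4516). The edgeR test passed in both (adjusted p = 0.000319 in RVO and 9.31e-07 in control eyes for Mki67), whereas fitted fold changes against so few counts depend on the prior count and are not given as bounds. The fold of Mki67 from control to RVO eyes was 1.03, and a standard error on either side spanned 0.789 to 1.33 (log2 fold change 0.04 with a standard error of 0.38, edgeR, adjusted p = 0.947).

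Top2a (chromosome 11, 98992943 to 99024189), the topoisomerase that untangles chromosomes before they separate, had 0, 0 and 2 counts in untreated samples, 89, 59 and 72 in control samples and 106, 163 and 50 in RVO samples. In CPM, this was 4.02, 2.98 and 3.01 in control and 3.38, 6.92 and 2.20 in RVO replicates. The ratio of pooled counts to untreated eyes was 77.6 in RVO (exact 95% interval 21.3 to 644) and 63.2 in control eyes (17.3 to 525), and the edgeR test passed in both (adjusted p = 0.000423 and 1.12e-06 for Top2a). The fold of Top2a from control to RVO eyes was 1.24 (log2 fold change 0.32 with a standard error of 0.39, edgeR, adjusted p = 0.559). For both genes, RVO replicate 2 was the highest of all samples, and without it the log2 fold change from control to RVO eyes turned negative, -0.50 for Mki67 and -0.26 for Top2a (edgeR, adjusted p = 0.12 and 0.401). Of the other genes of this role, Tpx2, which builds the spindle, had 4.86 ± 1.86 CPM in RVO (SD, n = 3) and 2.43 ± 0.401 CPM in untreated eyes and did not pass (edgeR, adjusted p = 0.0194). The motor proteins Kif11 and Kif20a had log2 fold changes of -0.07 and 0.07 in RVO eyes and did not pass (edgeR, adjusted p = 0.783 and 0.775), and Cdc23 on the opposite strand shares 25.2% of the 50-base words of Kif20a.

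**Figure D3:**
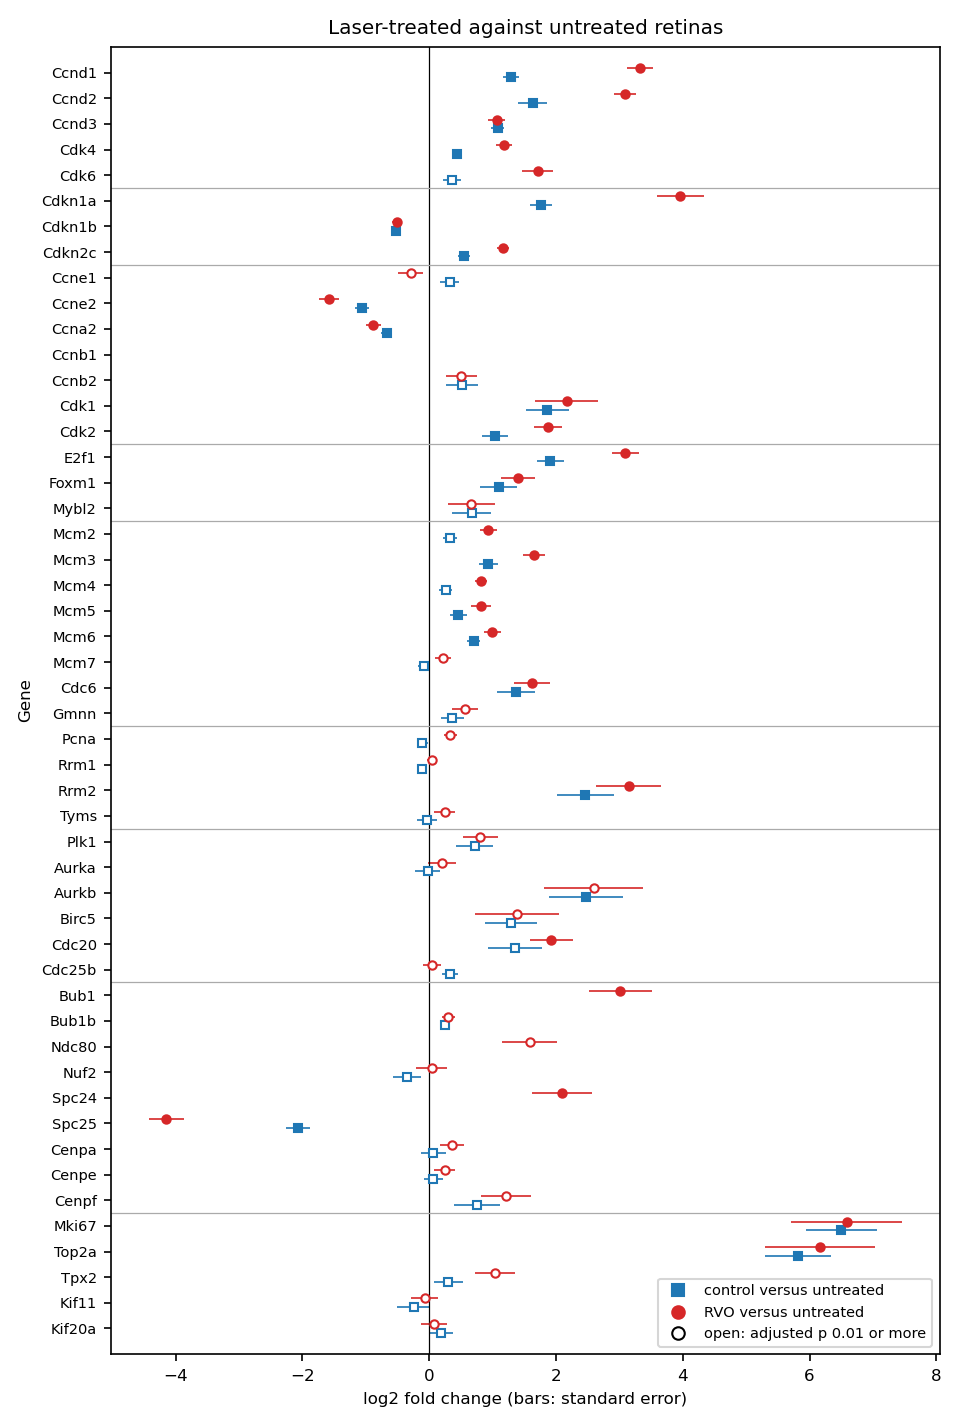
log2 fold changes of 49 genes in RVO (circles) and 46 in control eyes (squares) against untreated eyes, with the standard error as bars and open symbols for an adjusted p of 0.01 or more. D cyclins, Cdkn1a, E2f1, Mki67 and Top2a lie to the right, Cdkn1b, Ccne2, Ccna2 and Spc25 to the left, and values of Mki67, Top2a and Bub1 are fitted against 3 counts or fewer over the untreated group.

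Promoters are shown for the 3 genes with the largest changes between RVO and untreated eyes, Mki67, Top2a and Spc25, and for Nuf2, which had the smallest. The first 2 moved together, and Spc25 moved the opposite way. The windows are from RefSeq, on the minus strand of GRCm38.p6, and run 5′ to 3′ from 250 bases before to 50 bases after the start of transcription, with the matches described next in capitals.
Mki67, chr7:135716330-135716629: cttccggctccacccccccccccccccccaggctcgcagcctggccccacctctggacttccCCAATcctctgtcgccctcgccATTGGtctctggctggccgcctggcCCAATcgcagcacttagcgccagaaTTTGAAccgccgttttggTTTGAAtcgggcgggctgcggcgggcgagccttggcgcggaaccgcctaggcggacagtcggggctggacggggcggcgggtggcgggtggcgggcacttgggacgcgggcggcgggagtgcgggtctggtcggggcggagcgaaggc
Top2a, chr11:99024140-99024439: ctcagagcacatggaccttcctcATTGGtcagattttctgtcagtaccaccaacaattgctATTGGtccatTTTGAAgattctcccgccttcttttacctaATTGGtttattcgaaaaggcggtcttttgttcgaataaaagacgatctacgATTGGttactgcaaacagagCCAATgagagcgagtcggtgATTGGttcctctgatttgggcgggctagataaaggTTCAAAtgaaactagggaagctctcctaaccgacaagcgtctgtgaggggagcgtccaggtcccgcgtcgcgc
Spc25, chr2:69206164-69206463: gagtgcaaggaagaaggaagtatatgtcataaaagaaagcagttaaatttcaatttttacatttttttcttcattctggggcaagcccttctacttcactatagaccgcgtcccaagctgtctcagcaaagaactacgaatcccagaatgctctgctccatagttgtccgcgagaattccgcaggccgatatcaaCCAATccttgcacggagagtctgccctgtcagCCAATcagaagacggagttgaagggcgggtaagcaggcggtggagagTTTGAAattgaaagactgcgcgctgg
Nuf2, chr1:169531415-169531714: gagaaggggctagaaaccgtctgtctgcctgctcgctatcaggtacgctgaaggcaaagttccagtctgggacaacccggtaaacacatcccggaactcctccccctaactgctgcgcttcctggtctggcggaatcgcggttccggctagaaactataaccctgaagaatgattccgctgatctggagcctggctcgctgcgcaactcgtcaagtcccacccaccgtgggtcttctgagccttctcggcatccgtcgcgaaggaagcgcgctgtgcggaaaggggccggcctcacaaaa
Capitals mark TTTGAA, the letters of the cell cycle genes homology region (CHR), and CCAAT, the letters of the CCAAT box, each on either strand, so that TTCAAA and ATTGG are matches on the other strand. Both elements are known from promoters of genes that are expressed in G2 and mitosis. The window of Mki67 held 2 CHR and 3 CCAAT matches, that of Top2a held 2 and 6, that of Spc25 held 1 and 2 and that of Nuf2 held 0 and 0.

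RefSeq windows were found for 39 of the 50 genes, with 43 windows in all since 4 genes had 2 windows. TTTGAA was found in 14 of 43 windows (32.6%), beside 17.9% of 32851 windows of all genes. CCAAT was found in 29 windows (67.4%), beside 37.4% of all, and both were found in 13 windows (30.2%), beside 6.95% of all. Of E2F sites, the letters TTTCCCGC, TTTCGCGC, TTTGCCGC and TTTGGCGC were searched on both strands, and overlapping matches were counted separately. They were found in 7 windows (16.3%), beside 2.26% of all. Genes called higher in RVO than in untreated eyes had 21 windows. Of these, 5 held TTTGAA (23.8%), 13 CCAAT (61.9%), 5 both (23.8%) and 6 E2F letters (28.6%). By role, E2F letters were in 5 of 7 windows of replication licensing, and TTTGAA was in 3 of 3 windows of chromosomes, spindle and motors, 5 of 8 of the kinetochore and checkpoint and 3 of 5 of mitotic entry and exit. Spc25, which fell, held the same kinds of letters as Mki67 and Top2a, which rose. These matches describe the windows and are not binding sites measured here.

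**Figure D4:**
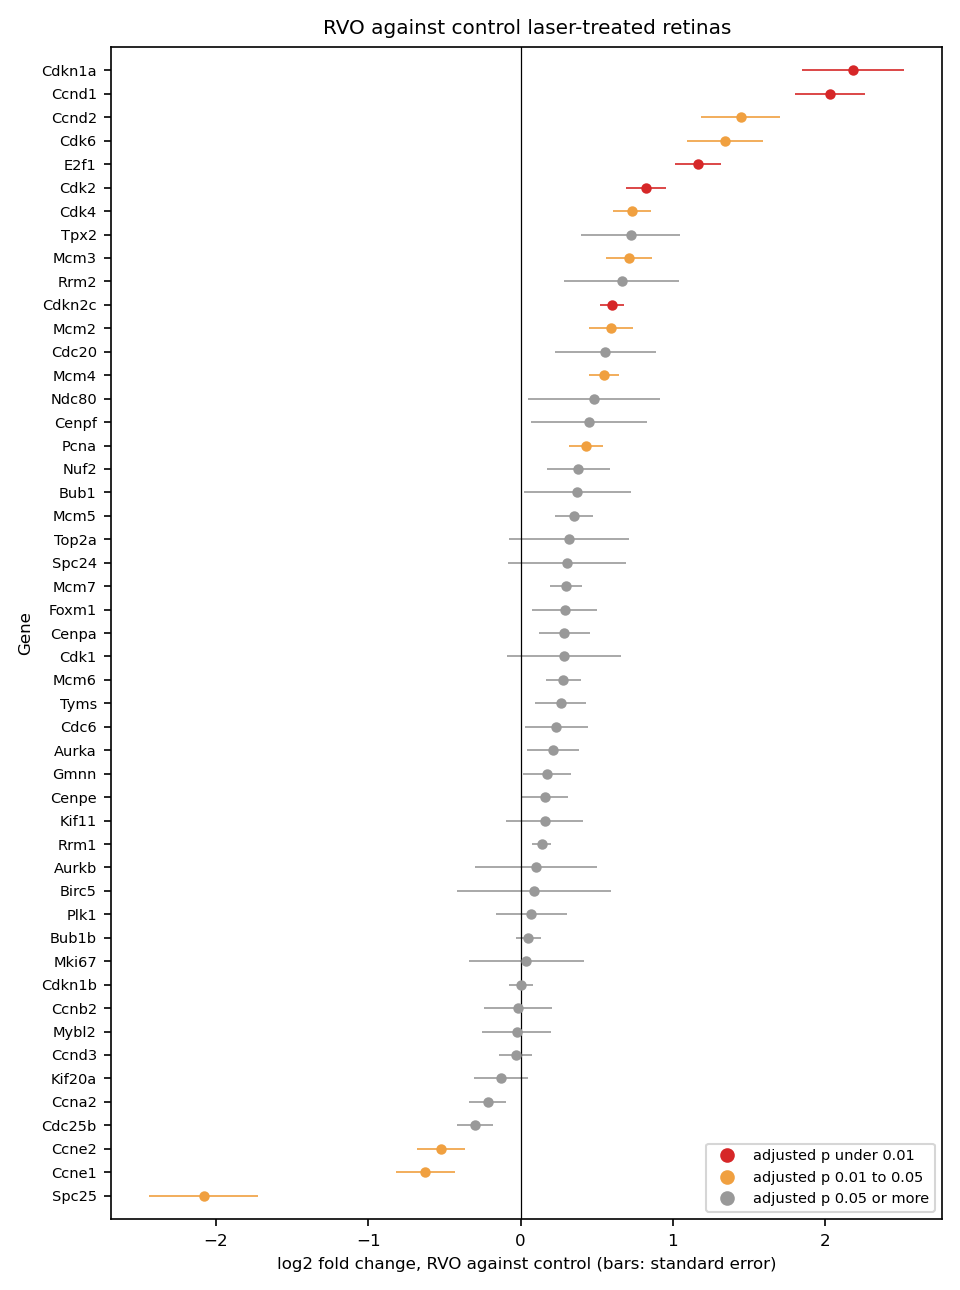
log2 fold changes of the 49 genes tested between RVO and control eyes, in order of size, with the standard error as bars and the adjusted p by color. Cdkn1a and Ccnd1 are highest, the 20 genes of mitosis range from -2.08 for Spc25, the lowest, to 0.72 for Tpx2, and 17 of them are positive.

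Between RVO and control eyes, the values differed between roles. Of the 8 genes of D cyclins, their kinases and CDK inhibitors, 3 were called higher, beside 2.7% of all genes, with a median log2 fold change of 1.04. Those calls rested on single libraries. With RVO replicate 1 or 3 or control replicate 1, 2 or 3 left out, 0 of the 50 genes were called higher. The 12 genes of licensing and DNA synthesis had a median of 0.32, with adjusted p-values from 0.0119 to 0.411 (edgeR). The 20 genes of mitosis had a median of 0.19, with adjusted p-values from 0.0109 to 0.947 (edgeR). The difference between roles itself was not tested. Against untreated eyes the medians of these 8, 12 and 20 genes were 1.44, 0.82 and 0.92 in RVO eyes, and they were 0.82, 0.35 and 0.30 in control eyes, where 17 of the 20 were tested.

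RVO replicate 2 was the highest RVO sample for 28 of the 50 genes, beside 7203 of 16874 genes tested, and for 15 of the 20 genes of mitosis. It was the lowest for 4 of the 5 genes of D cyclins and their kinases, beside 6755 of the 16874 genes. Whether these orders differ between roles was not tested. It also held the most lens RNA, and 10 lens markers summed to 188, 6003 and 524 CPM in RVO replicates 1, 2 and 3. They summed to 3073, 404 and 220 CPM in control replicates and to 18.8, 27.0 and 3.36 CPM in untreated replicates, where the lens fiber genes Mip and Lim2 were at 0. Of 7 lens markers tested, 5 were higher in RVO, and 8 of 8 were higher in control than in untreated eyes, beside 27.4% and 27.2% of all genes. Lens markers near 0 in untreated eyes enter the test through the laser-treated samples and could hardly be called lower. Mki67 was highest in the sample with the most lens RNA in each laser-treated group, 5.05 CPM in RVO replicate 2 and 3.75 CPM in control replicate 1. Among the other 4 laser-treated samples it was 1.80 to 2.83 CPM, still above 0.0714 CPM, the highest untreated value. When both samples were left out, 12 genes were higher in RVO eyes and 1 was lower (edgeR, adjusted p under 0.01), beside 12.5% and 16% of all genes, and the log2 fold change was -0.31 for Mki67 and -0.10 for Top2a. The part of lens RNA in these results was not tested.

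**Figure D5:**
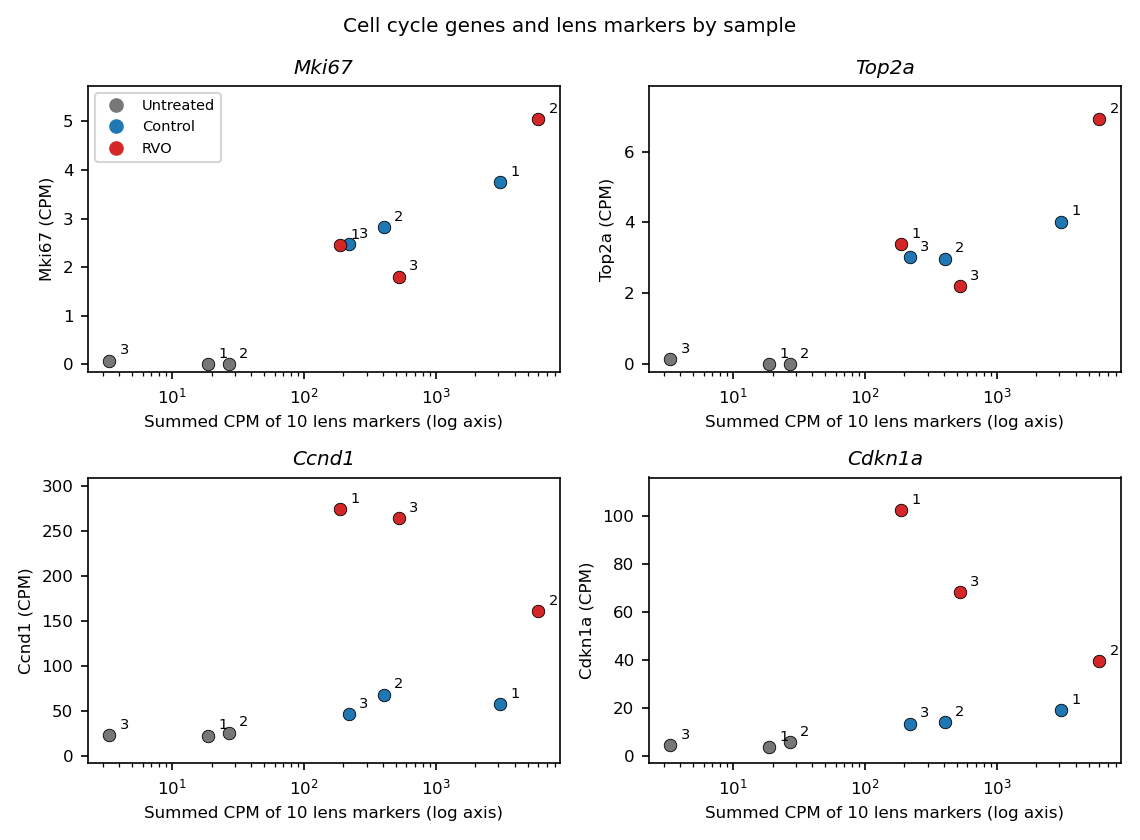
CPM of Mki67, Top2a, Ccnd1 and Cdkn1a in each sample against the summed CPM of 10 lens markers on a log axis, with the replicate number beside each point. RVO replicate 2 has the most lens RNA, the highest Mki67 and Top2a and the lowest Ccnd1 and Cdkn1a of the RVO samples, and every laser-treated sample lies above every untreated sample in all 4 panels.

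Markers of other cell types were called in different directions, and not all of these cell types divide in the adult. Among all genes tested, 27.4% were higher and 24.6% lower in RVO, and 27.2% and 25.2% in control than in untreated eyes. Counts of markers near these shares, as for Mueller cells, pigment epithelium and endothelial cells in RVO eyes, are no result about the markers. Of 10 endothelial markers, 3 were higher in RVO and 7 in control than in untreated eyes, and their sums were 172 to 177 CPM in untreated, 153 to 281 CPM in RVO and 329.8 to 375 CPM in control samples. Of 10 microglia markers, 6 were lower in RVO and 7 in control eyes, with sums, in the order RVO, control and untreated, of 47.8 to 88.6, 78.5 to 95.0 and 132 to 202 CPM. Of 10 monocyte and macrophage markers, 7 were higher and 1 lower in both comparisons, with sums of 147 to 167, 81.6 to 99.8 and 48.8 to 69.1 CPM. Neutrophil markers summed to 46.9 to 105, 8.49 to 24.9 and 0.547 to 1.21 CPM, and 5 of the 10, Cxcr2, Ly6g, Mmp8, Retnlg and Elane, were at 0 in untreated eyes. The 5 tested in RVO and the 4 tested in control eyes were all called higher. Markers so near 0 in untreated eyes enter the test through the laser-treated samples and could hardly be called lower, so these calls add nothing to the sums. Of 10 Mueller cell markers, 3 were higher and 4 lower in RVO and 4 and 4 in control eyes, with sums of 2814 to 3228, 3134 to 3632 and 4319 to 4569 CPM. Of 10 markers of pigment epithelium, 1 was higher and 2 lower in RVO and 1 and 3 in control eyes, with sums of 519 to 828, 591 to 636 and 689.9 to 748 CPM. The part of these cells in the changes of the cell cycle genes was not tested.

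Other genes of the same pathways were taken from 4 further lists. Of 40 other replication genes, 12 had higher and 3 lower levels in RVO eyes, compared with untreated eyes. Of all genes, 27.4% were higher and 24.6% lower, so the share of higher replication genes was near that of all genes. Uhrf1, which maintains DNA methylation, rose from 0.368 ± 0.0582 to 3.81 ± 0.524 CPM (SD, n = 3, log2 fold change 3.38, edgeR, adjusted p = 3.37e-05). Gins2 of the replicative helicase (2.69) and the histone chaperone Asf1b (2.24) also rose. Of 57 other mitosis genes tested, 11 were higher and 10 lower, shares below the background of 27.4% and 24.6%. Pbk, a mitotic kinase, had 0 counts in untreated eyes and 0.934 ± 0.626 CPM in RVO eyes (SD, n = 3), and Cdca5, which encodes sororin of the cohesin complex, and Ube2c, a ubiquitin enzyme of mitotic exit, had at most 1 count in each untreated sample and 0.753 ± 0.341 and 1.078 ± 0.464 CPM in RVO eyes. The 3 largest falls, named after their values were seen, were those of Stmn1, which encodes the microtubule regulator stathmin (-2.49), the phosphatase Cdc25c (-1.82) and the motor protein Kif4 (-1.66), given as log2 fold changes (edgeR, adjusted p = 0.000157, 0.00178 and 0.00174).

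Of 23 other CDK inhibitors and p53 targets tested, 16 rose and 3 fell in RVO against untreated eyes, beside 27.4% and 24.6% of all genes. The median log2 fold change was 1.204. In control eyes, 10 were higher and 5 lower, beside 27.2% and 25.2% of all genes, with a median of 0.38. Gadd45b, a stress gene that can halt the cell cycle, rose from 4.21 ± 0.0632 CPM in untreated eyes to 45.8 ± 7.50 CPM in control and 119 ± 26.7 CPM in RVO eyes (SD, n = 3, log2 fold change 4.85 in RVO and 3.46 in control eyes, edgeR, adjusted p = 2.45e-06 and 8.07e-09). Phlda3, a p53 target, rose from 3.82 ± 0.0960 to 15.3 ± 2.18 and 36.8 ± 9.74 CPM (log2 fold change 3.30 in RVO eyes), and Eda2r, a receptor that p53 induces, had at most 1 count in each untreated sample and 3.81 ± 1.56 CPM in RVO eyes. Between RVO and control eyes, 4 genes of this list were higher (edgeR, adjusted p under 0.01), beside 2.7% of all genes. At an adjusted p under 0.05, 15 were higher, beside 17.5% of all genes. Without RVO replicate 3, control replicate 2 or control replicate 3, 0 of all genes were called higher at 0.01.

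Of 16 tested genes of the Rb and E2F family other than E2f1, Foxm1 and Mybl2, 4 were higher and 7 lower in RVO, and 3 and 8 in control eyes. Of all genes, 27.4% were higher and 24.6% lower in RVO, and 27.2% and 25.2% in control eyes. The shares of higher genes of this family thus did not exceed those of all genes, and the shares of lower genes did. Higher were E2f2, with 0.338 ± 0.188 CPM in untreated and 1.14 ± 0.191 CPM in RVO eyes (SD, n = 3, log2 fold change 1.74, edgeR, adjusted p = 0.00457), and the repressor E2f6, with 26.9 ± 2.27 and 59.4 ± 7.20 CPM (log2 fold change 1.18). Mybl1, the paralog of Mybl2, fell from 7.54 ± 0.539 to 3.80 ± 0.0638 CPM (log2 fold change -0.96). The log2 fold changes of the 16 genes ranged from -0.96 to 1.74, beside 3.09 for E2f1.

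By level per exon length, the cell cycle genes of untreated eyes were led by Spc25, with 71.8 ± 5.58 CPM per kb (SD, n = 3), followed by Cdkn1b with 34.6 ± 0.818 and Pcna with 16.1 ± 0.458 CPM per kb. Bub1b and Ccna2 were next to each other at 10.2 ± 0.984 and 10.1 ± 0.778 CPM per kb and did not differ beyond their spread. Mki67 and Ccnb1 were the lowest, at ranks 49 and 50. In RVO eyes, Ccnd1 led with 49.5 ± 13.4 CPM per kb, followed by Cdk4 with 25.4 ± 4.25 and Cdkn1b with 23.8 ± 2.14 CPM per kb, and Cdk4 and Cdkn1b did not differ beyond their spread. Cdkn1a moved from rank 20 to rank 5 and Spc25 from rank 1 to rank 15. Mki67 moved from rank 49 to rank 44 of 50, with 0.308 CPM per kb.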

How the data were processed

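RNA from 9 pools of mouse retinas (3 RVO, 3 control, 3 untreated) was sequenced by the authors with a stranded kit and single reads. The deposited values are raw counts per gene, which the authors made with STAR 2.5.2b and featureCounts (Subread 1.5.1) on GRCm38 with GENCODE vM11 genes. The strand setting and the handling of reads with several matches are not given in the sources used here. The table lists 48679 names, of which 18249 have 0 counts in all samples, including 92 spike-ins. Columns were assigned by sample name, and 0 were left unused.

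The counts were tested in R 4.3.3 with edgeR 4.0.16 (filterByExpr, TMM, quasi-likelihood test), and p-values were adjusted over all genes tested (Benjamini-Hochberg). Standard errors were derived from the F statistic. Positions and exon lengths are those of GENCODE vM21 on the same build. Alternatives used DESeq2 1.42.0 for size factors and the Wald test, total count scaling, no filter, at least 10 counts in every sample, 1 fit over all 9 samples, a replicate block, a threshold of 0.05, removal of trends with GC content and length by loess (limma 3.58.1), and each replicate left out. The fit without both lens-rich samples was added after seeing the data. The procedure was tested on simulated data. Tables and plots were made with Python 3.11.15, pandas 2.3.3 and matplotlib 3.10.9.

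The genes and lists were chosen with earlier results of these data known. Described in full are the D cyclins, the CDK inhibitors, Cdk4, Cdk6, E2f1, Foxm1 and Mybl2, and for each role the 2 genes with the largest change between RVO and untreated eyes. Ccne1, Ccne2, Ccna2 and Nuf2 were added after their values were seen. Intervals of ratios are exact at 95% and cover counting error only. The floor of 3 counts covers that of the untreated samples only. Replicates differed by more than sampling noise, with chi-square values per degree of freedom of 3.34 to 59.5.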

Additional observations from a re-analysis of the deposited data

How the results depend on the processing

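Against untreated eyes, the 4 lower genes stayed at 4 under all alternatives except removal of GC and length trends, which gave 3 in both comparisons. The higher genes in RVO eyes were 14 (28.2% of all genes) when at least 10 counts were required in every sample, which removes genes near 0 in untreated eyes, and 20 to 25 with a replicate left out. In control eyes they were 12 (28.6% of all genes) with at least 10 counts in every sample and 15 (25.1%) with DESeq2's Wald test. With a replicate left out they were 15 to 19. Without a filter, the higher genes were 29 in RVO (18.1% of all genes) and 26 in control eyes (17.8%). Between RVO and control eyes the share of all genes called changed too and is given in parentheses. Higher genes numbered 3 with DESeq2 size factors (1.92%), 11 with DESeq2's Wald test (11%), 11 without a filter (5.28%), 12 in 1 fit over all samples (10.7%), 12 at a threshold of 0.05 (17.5%), 2 with GC and length trends removed (1.64%), 12 without both lens-rich samples (12.5%) and 0 to 14 with a replicate left out (0 to 17.1%). Lower genes numbered 1 with total count scaling (1.2%), the Wald test (12.9%), no filter (5.85%), 1 fit over all samples (11.8%) or without both lens-rich samples (16%), 3 at a threshold of 0.05 (17.1%) and 0 to 3 with a replicate left out (0 to 19.3%). The causes were not tested.

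With the replicate number as a block, 0 of these genes and 0 of all genes were higher between RVO and control eyes (edgeR). At an unadjusted p under 0.05, this fit gave 14 higher and 3 lower, where 7227 of all 16874 genes passed in either direction. Foxm1 lost its call in control against untreated eyes with the block (edgeR, adjusted p = 0.0110). Whether pools with the same number hold fellow eyes is not given. Deviations of RVO and control samples with the same number 1, 2 and 3 correlated at -0.131, -0.148 and 0.0711. So few pools, which also differ in lens RNA, cannot decide whether the numbers pair them.

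Some values near 0 changed sign. Against untreated eyes, Pcna in control eyes was 0.068 with total count scaling and 0.33 with GC and length trends removed, Nuf2 in control eyes was 0.13 with these trends removed, and Nuf2 in RVO eyes was -0.092 to 0.25 with a replicate left out. Between RVO and control eyes, Cdkn1b was -0.015 with DESeq2 size factors, -0.016 with the Wald test, -0.012 without a filter, -0.0016 with at least 10 counts, -0.0012 in 1 fit and -0.0015 with the block. Mki67 was -0.063 with the block, and with total count scaling Ccnd3 was 0.016 and Mybl2 0.025. Without both lens-rich samples, Cdkn1b was -0.12, Cdk1 -0.14, Mybl2 0.093, Aurkb -0.54, Mki67 -0.31 and Top2a -0.10. With a replicate left out, the ranges were -0.14 to 0.055 for Ccnd3, -0.089 to 0.047 for Cdkn1b, -0.21 to 0.53 for Cdk1, -0.26 to 0.11 for Mybl2, -0.46 to 0.34 for Aurkb, -0.50 to 0.30 for Mki67 and -0.26 to 0.61 for Top2a.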
